A study of Mus musculus with 8 samples.

Results

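The 9 genes described here were grouped under the handling of vitamin A. Among them are 4 aldehyde dehydrogenases of the ALDH1A group (Aldh1a1, Aldh1a2, Aldh1a3, Aldh1a7) and 2 enzymes of the step before these (Rdh10, Dhrs3). The others are 2 carriers of retinoic acid in the cytoplasm (Crabp1, Crabp2) and 1 receptor (Rarb). All 9 were selected by symbol, with the high Aldh1a3 counts in Wfs1KO islets already known. Each was found among the 24537 genes of the count table. The question was whether Aldh1a3 moves with the other genes of the retinoid pathway or by itself. RNA had been sequenced from pancreatic islets, the clusters of hormone-secreting cells in the pancreas, of male mice aged 12 weeks, with 4 WT and 4 Wfs1KO samples and no treatment. Wfs1 encodes wolframin, which sits in the membrane of the endoplasmic reticulum, and Wfs1KO denotes its knockout. The strain, the targeted exons and whether each sample is 1 animal are not given in the sources used here, so the spread between samples may be partly technical.

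Retinoic acid is made from retinol in a pair of oxidations. Retinol dehydrogenases such as RDH10 make retinaldehyde, which DHRS3 can reduce back to retinol. Enzymes of the ALDH1A group such as ALDH1A3 then oxidise retinaldehyde irreversibly to retinoic acid. Retinoic acid enters the nucleus, binds receptors of the RAR family paired with RXR, and switches on target genes, among them Rarb and the CYP26 enzymes that break it down. In the pancreas this pathway is known for its part in early development, and in adult islets Aldh1a3 is widely used as a marker of beta cells that have lost mature features.

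Exon counts per library ranged from 15810830 to 27057617. Wfs1 itself stood at 156 to 190 CPM (counts on a common scale for all libraries, from library sizes scaled by edgeR's TMM method) in WT and at 98.9 to 125 CPM in Wfs1KO, with reads left in every Wfs1KO library. Endocrine markers were abundant in all libraries: 8 beta cell markers summed to 162062 to 207764 CPM in WT and to 109823 to 135125 CPM in Wfs1KO, without overlap, and 6 of the 8 fell and 1 rose. Cells from outside the islet varied. Acinar cells make the digestive enzymes of the pancreas, and the sum of their 8 markers lay between 25129 and 55932 CPM in WT and between 7666 (replicate 3) and 52999 CPM (replicate 4) in Wfs1KO. Markers of endothelial cells (520 to 599 CPM in WT, 712 to 841 CPM in Wfs1KO, 8 of 8 rose) and of stellate cells and fibroblasts (186 to 277 and 321 to 381 CPM, 3 of 10 rose) did not overlap between genotypes. Most of the stellate sum was Rgs5, a pericyte gene at 135 CPM in WT and 219 CPM in Wfs1KO, while the collagen genes Col1a1, Col1a2 and Col3a1 of that list did not pass. No marker of any of these lists was at 0 in all libraries. In RNA from whole islets, fewer cells of a type cannot be told apart from less RNA per cell.

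Of the 9 genes, 6 passed the filter on low counts and were among the 15733 genes tested, whereas Aldh1a2, Crabp1 and Crabp2 did not pass it. A gene is said to have risen or fallen where the quasi-likelihood test of edgeR gave an adjusted p (Benjamini-Hochberg) under 0.05. Aldh1a3 and Dhrs3 rose, none of the 6 fell, and Aldh1a1, Aldh1a7, Rdh10 and Rarb did not pass. Over all tested genes 18.9% passed, 10.4% being higher and 8.49% lower in Wfs1KO. The ranges of the genotypes did not overlap in 3 of the 6 tested members (Aldh1a3, Dhrs3 and Rarb) and overlapped in the 3 members that were not tested, while 22.6% of all tested genes did not overlap. Because Aldh1a3 led to the choice of these genes, these counts and the members' differences between genotypes are a description, with standard errors and no p-values.

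**Figure D1:**
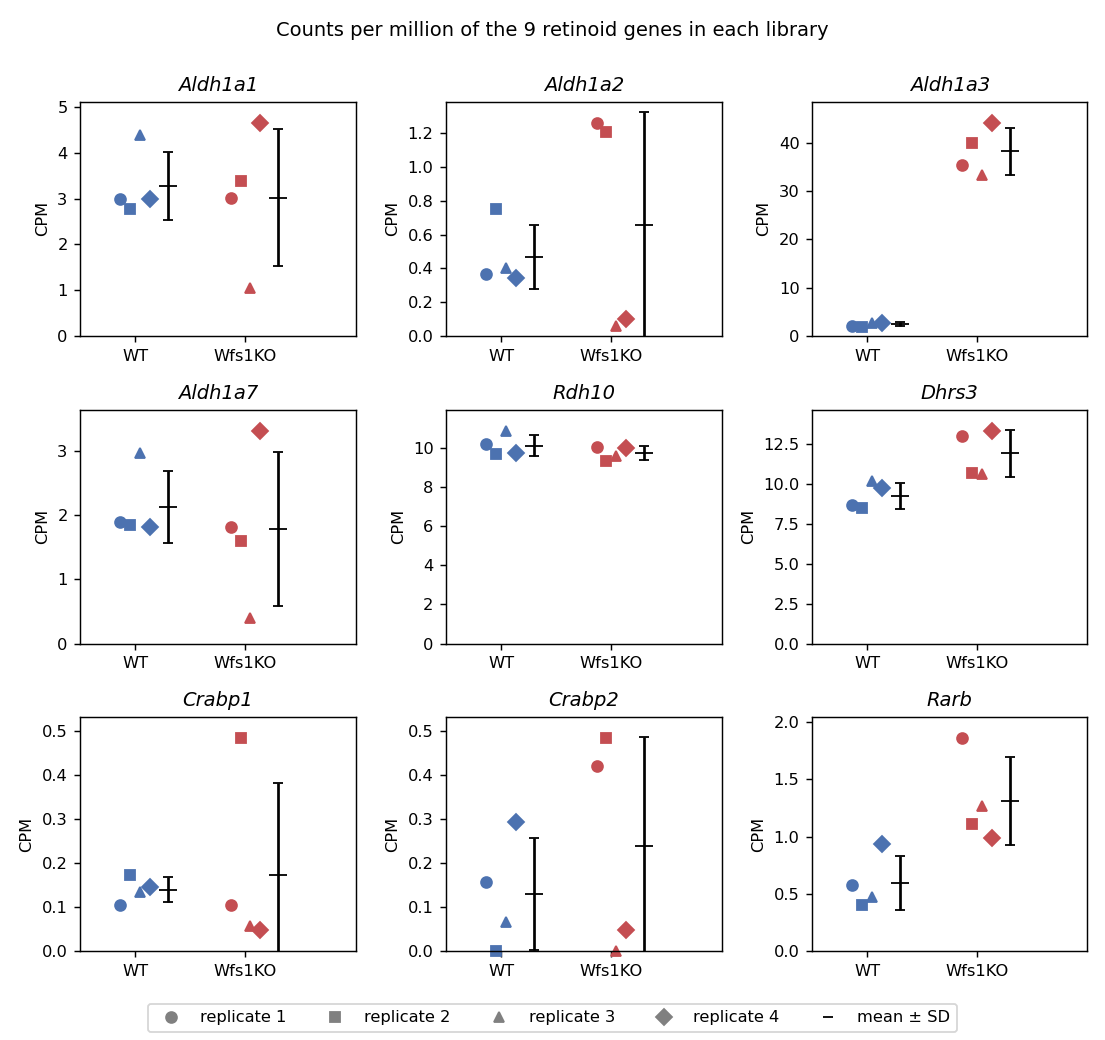
Levels in CPM (vertical axes, each from 0) of the 9 genes in the 4 WT (blue) and 4 Wfs1KO (red) libraries, with 1 marker shape per replicate number and black bars for mean ± SD (n = 4), cut off at 0 where the SD exceeds the mean. Aldh1a3 sits between 33.4 and 44.1 CPM in Wfs1KO, above all WT libraries, while Aldh1a1, Aldh1a7 and Rdh10 overlap between genotypes.

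The 4 dehydrogenases are related by descent, and it matters for the counts how far their sequences can be told apart. The coding sequences of Aldh1a1 and Aldh1a7 were 91.6% identical and shared 10.4% of their runs of 50 bases. The other pairs were 65.9% to 68.5% identical and shared none, so a read of 50 coding bases from Aldh1a3 matches no other gene of the 4 exactly. The stretches below code for the surroundings of the catalytic cysteine, the residue that attacks the aldehyde. They start at coding base 907 of Aldh1a3, 874 of Aldh1a1 and of Aldh1a7, and 925 of Aldh1a2 (GENCODE M21 transcripts), and capitals mark bases that differ from Aldh1a3.
Aldh1a3: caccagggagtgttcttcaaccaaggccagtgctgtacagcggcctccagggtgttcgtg
Aldh1a2: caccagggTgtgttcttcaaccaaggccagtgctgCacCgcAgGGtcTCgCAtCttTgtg
Aldh1a7: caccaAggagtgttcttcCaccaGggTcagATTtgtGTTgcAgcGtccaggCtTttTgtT
Aldh1a1: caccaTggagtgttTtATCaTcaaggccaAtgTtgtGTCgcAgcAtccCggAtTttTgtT
Even in this conserved stretch of 60 bases, 12 differed from Aldh1a3 in Aldh1a2, 16 in Aldh1a7 and 18 in Aldh1a1.

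Aldh1a3 (NM_053080, chromosome 7, 66390893 to 66427477 in mm10, minus strand) was low in WT islets and was the gene with the second largest log2 fold change of the 15733 tested. In WT replicates 1 to 4 its level was 2.15, 1.96, 2.77 and 2.75 CPM, from 41, 34, 41 and 56 counts. In Wfs1KO replicates 1 to 4 it reached 35.4, 40.0, 33.4 and 44.1 CPM, from 1011, 826, 579 and 891 counts. The genotypes lay far apart, and the libraries within each lay close together, with coefficients of variation of 17.1% in WT and 12.5% in Wfs1KO. Its log2 fold change was 3.99 (SE 0.13, 95% interval 3.72 to 4.26), a ratio of means of 15.9. In the authors' deposited table the log2 fold change of Aldh1a3 was 3.46, that of Dhrs3 0.32 and that of Rarb 0.53, each below the value fitted here. Per kilobase of exon, its level went from percentile 43.8 of the 24537 genes in WT to percentile 75.8 in Wfs1KO. The log2 fold change was 4.17 in replicates 1 and 2 alone and 3.80 in replicates 3 and 4 alone, and it was 4.07 with the acinar marker sum as a covariate. Leaving out any 1 library gave 3.90 to 4.07.

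Aldh1a1 (NM_013467, chromosome 19, 20601982 to 20643462, plus strand), which encodes a broadly expressed retinaldehyde dehydrogenase, did not follow Aldh1a3. It stood at 2.996, 2.77, 4.39 and 2.99 CPM in WT and at 3.01, 3.39, 1.04 and 4.65 CPM in Wfs1KO. The lowest and the highest of the 8 values were both from Wfs1KO, in replicates 3 and 4. Its log2 fold change was -0.11 (SE 0.35, 95% interval -0.87 to 0.66), an interval that holds changes of moderate size in either direction. The value was 0.06 without WT replicate 3, 0.16 without Wfs1KO replicate 3 and 0.21 with the acinar marker sum as a covariate.

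Aldh1a7 (NM_011921, 20692953 to 20727556, minus strand), a rodent gene close to Aldh1a1 in sequence, lies next to it on chromosome 19 and points the other way. Its levels were 1.89, 1.85, 2.97 and 1.82 CPM in WT and 1.82, 1.60, 0.404 and 3.32 CPM in Wfs1KO. The same libraries were lowest and highest as for Aldh1a1, Wfs1KO replicates 3 and 4. The log2 fold change was -0.24 (SE 0.45, 95% interval -1.22 to 0.75), and 0.070 without Wfs1KO replicate 3 and 0.11 with the acinar covariate. Deviations of log2 CPM from the genotype means correlated between Aldh1a1 and Aldh1a7 at r = 0.985 over the 8 libraries, against 0.654 between Aldh1a1 and Aldh1a3. The reads that the first pair may share through their like sequence enter that value.

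The pair is also alike just upstream of the start, which is shown because their levels run together. Below are the 120 bases before the start of each gene (RefSeq, GRCm38.p6; Aldh1a1 chr19:20601848-20601967, plus strand, and Aldh1a7 chr19:20727557-20727676, minus strand), with the longest run that both share, 65 bases, in capitals. For Aldh1a1 the RefSeq window starts the gene at 20601968, slightly upstream of the start in the count table, and of its 2 windows the one with the longer shared run is shown.
Aldh1a1: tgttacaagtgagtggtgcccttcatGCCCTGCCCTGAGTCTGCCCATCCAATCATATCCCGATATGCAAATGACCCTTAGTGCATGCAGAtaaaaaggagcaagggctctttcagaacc
Aldh1a7: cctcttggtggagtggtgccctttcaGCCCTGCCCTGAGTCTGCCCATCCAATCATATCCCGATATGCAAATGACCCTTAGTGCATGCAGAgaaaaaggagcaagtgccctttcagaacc

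Both genes went with the acinar markers across libraries, Aldh1a1 less closely than Aldh1a7. For Aldh1a7 and the acinar marker sum, Pearson's r was 0.955 over 8 samples (two-sided exact permutation p = 0.00169, adjusted p = 0.0708) and Spearman's rho was 0.857 (exact permutation p = 0.0107). For Aldh1a1, r was 0.907 (exact permutation p = 0.00449, adjusted p = 0.0943) and rho was 0.619 (exact permutation p = 0.115). Without WT replicate 3 and Wfs1KO replicate 4, which had the highest acinar sums, r was 0.890 for Aldh1a7 and 0.787 for Aldh1a1. Wfs1KO replicate 3, lowest in the acinar sum and in both genes, stayed in these values. Between these extremes Aldh1a1 did not follow the sum. It stood at 3.39 CPM in Wfs1KO replicate 2 (acinar sum 22338 CPM) and at 2.996 CPM in WT replicate 1 (35179 CPM). These were 2 of 42 relations between members and marker sums, none of which passed after Benjamini-Hochberg adjustment. The permutations exchanged all 8 libraries freely, without regard to genotype or replicate number. Within the 4 libraries of a genotype, too few for a test, r was 0.962 in WT and 0.982 in Wfs1KO for Aldh1a7, and 0.962 and 0.923 for Aldh1a1. The relation was not particular to this pair. For Rdh10, another of the 42, r with the acinar sum was 0.757 (exact permutation p = 0.0293, adjusted p = 0.308). Its rho was 0.667 (exact permutation p = 0.0831), and its r was 0.995 within WT and 0.523 within Wfs1KO. The part of acinar RNA in the levels of these genes was not tested.

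Aldh1a2 (NM_009022, chromosome 9, 71215789 to 71296243, plus strand), the retinaldehyde dehydrogenase best known from embryonic mesenchyme, was near the limit of detection. Its counts were 7, 13, 6 and 7 in WT (0.368, 0.750, 0.405 and 0.344 CPM) and 36, 25, 1 and 2 in Wfs1KO (1.26, 1.21, 0.0577 and 0.0990 CPM). Wfs1KO replicates 1 and 2 lay above every WT library and replicates 3 and 4 below every one. The sum of 6 leukocyte markers, which stood at 427, 291, 236 and 148 CPM in Wfs1KO replicates 1 to 4 and at 159 to 258 CPM in WT, correlated with it at r = 0.825 (exact permutation p = 0.00791, adjusted p = 0.111) and rho = 0.667 (exact permutation p = 0.0831). Without Wfs1KO replicates 1 and 2 r was 0.425 over the other 6 libraries, so the relation over all 8 rests in part on those samples, while r was 0.911 within the 4 WT libraries and 0.831 within the 4 Wfs1KO libraries. Some fibroblast markers, picked out after their values were seen, also lay above every WT library in Wfs1KO replicates 1 and 2 only. In Wfs1KO replicate 3 they lay below every WT library, and in replicate 4, unlike Aldh1a2, within the WT range. Dcn, the decorin gene, stood at 45.1, 28.2, 3.63 and 7.13 CPM in Wfs1KO replicates 1 to 4 and at 3.73 to 8.20 CPM in WT. Pdgfra stood at 4.62, 3.29, 0.462 and 1.29 CPM in the same Wfs1KO libraries, and Lum at 4.52, 4.40, 0.808 and 1.48 CPM. The other markers in that list of 10 did not part these libraries so. Col1a1, Col1a2 and Col3a1 stayed within the WT range in every Wfs1KO library. Pdgfrb, Rgs5 and Acta2 lay above every WT library in all 4 Wfs1KO libraries, and Des in 3. The part of leukocyte or fibroblast RNA was not tested.

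**Figure D2:**
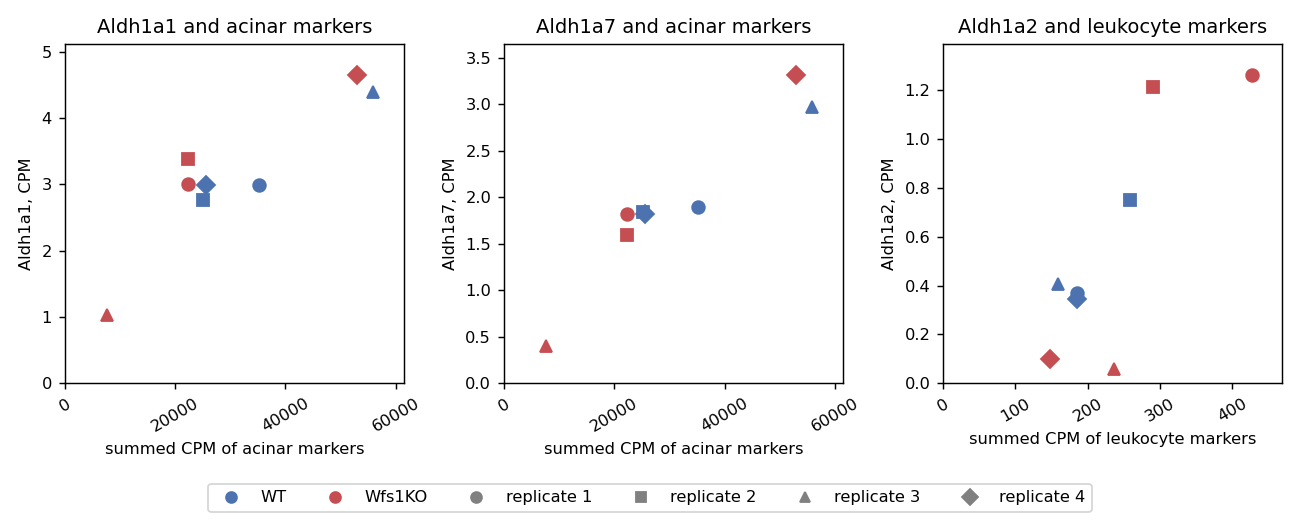
Levels in CPM of Aldh1a1, Aldh1a7 and Aldh1a2 (vertical axes) against the summed CPM of 8 acinar or 6 leukocyte markers (horizontal axes), 1 point per library, blue for WT and red for Wfs1KO, with a marker shape per replicate number. Wfs1KO replicate 3 is lowest in acinar markers (7666 CPM), in Aldh1a1 and in Aldh1a7, and Aldh1a2 is highest in Wfs1KO replicates 1 and 2.

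The makeup of the family in RNA therefore differed between genotypes. Whether each of the 4 enzymes acts on retinaldehyde was not examined. Divided by exon length, the 4 dehydrogenases summed to 3.21, 3.19, 4.63 and 3.34 CPM per kilobase in WT and to 13.4, 14.8, 10.6 and 17.0 CPM per kilobase in Wfs1KO. Aldh1a3 made up 19.8%, 18.2%, 17.7% and 24.3% of this sum in WT and 78.0%, 79.7%, 93.0% and 76.6% in Wfs1KO. Aldh1a1 was the largest share in every WT library, at 45.2% ± 1.79 (SD, n = 4), and took 10.2% ± 3.75 in Wfs1KO. Aldh1a1 and Aldh1a7 together made up 74.0% ± 3.47 in WT and 16.1% ± 6.84 in Wfs1KO. With exon lengths of 2017 and 2045 bases, their sum depends little on how counted reads were divided between them. As Aldh1a1 and Aldh1a7 did not pass the test as levels, their lower shares go with the higher sum. Wfs1KO replicate 3 had the highest Aldh1a3 share and the lowest Aldh1a3 level of its genotype, and it was also the library with the lowest Aldh1a1 and Aldh1a7. Without dividing by length, the Aldh1a3 share was 29.2% ± 3.90 in WT and 88.0% ± 5.18 in Wfs1KO.

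**Figure D3:**
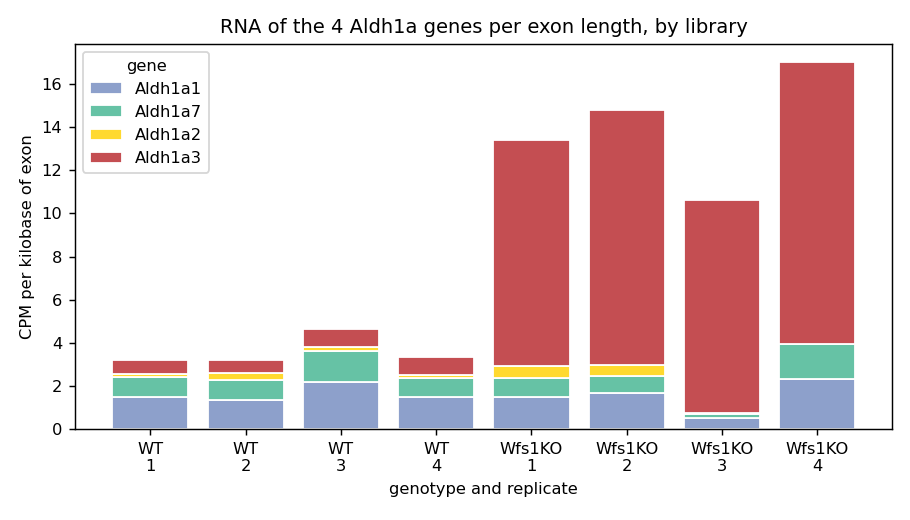
Levels of Aldh1a1, Aldh1a7, Aldh1a2 and Aldh1a3 in CPM per kilobase of exon (vertical axis), stacked for each of the 8 libraries (horizontal axis). The sums run from 3.19 to 4.63 in WT and from 10.6 to 17.0 in Wfs1KO, and Aldh1a3 is the largest segment in Wfs1KO libraries only.

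The genes of the step before the dehydrogenases differed from each other. Rdh10 (NM_133832, chromosome 1, 16105882 to 16132550, plus strand), the retinol dehydrogenase that supplies retinaldehyde, stood at 10.2, 9.70, 10.9 and 9.72 CPM in WT. In Wfs1KO it stood at 10.05, 9.34, 9.58 and 9.996 CPM, within or close to the WT range. The log2 fold change was -0.05 (SE 0.09), and its 95% interval of -0.24 to 0.13 leaves room for small changes only. Its coefficients of variation, 5.45% in WT and 3.50% in Wfs1KO, were the lowest of the 9 genes.

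Dhrs3 (NM_011303, chromosome 4, 144893137 to 144927645, plus strand), which encodes the retinaldehyde reductase and is itself known to be induced by retinoic acid, rose slightly. It stood at 8.67, 8.54, 10.2 and 9.77 CPM in WT and at 13.0, 10.7, 10.7 and 13.4 CPM in Wfs1KO. All 4 Wfs1KO libraries lay above all WT libraries, replicates 2 and 3 by a narrow margin. The log2 fold change was 0.37 (SE 0.11, 95% interval 0.14 to 0.60), a ratio of means of 1.28. Dhrs3 no longer passed without WT replicate 1 (0.33), WT replicate 2 (0.33), Wfs1KO replicate 1 (0.32) or Wfs1KO replicate 4 (0.30), nor in replicates 3 and 4 alone (0.26). The ratio of Rdh10 to Dhrs3, both per kilobase and computed after their values were seen, was 0.877, 0.846, 0.795 and 0.742 in WT and 0.575, 0.651, 0.669 and 0.558 in Wfs1KO, without overlap.

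Per kilobase of exon, Dhrs3 had the highest level of the 9 genes in WT (5.45 ± 0.478 CPM per kilobase, SD, n = 4), followed by Rdh10 (4.43 ± 0.241), Aldh1a1 (1.63 ± 0.368), Aldh1a7 (1.04 ± 0.274) and Aldh1a3 (0.712 ± 0.122). The other 4 were at 0.145 to 0.208 CPM per kilobase, and their order did not stand out from their spread. In Wfs1KO, Aldh1a3 came first (11.3 ± 1.41), before Dhrs3 (7.002 ± 0.853) and Rdh10 (4.26 ± 0.149). Aldh1a1 (1.498 ± 0.742) and Aldh1a7 (0.872 ± 0.585) followed and lay within each other's spread.

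Crabp1 (NM_013496, chromosome 9, 54764748 to 54773110, plus strand) and Crabp2 (NM_007759, chromosome 3, 87948693 to 87953372, plus strand) encode cytoplasmic retinoic acid binding proteins, of which CRABP2 delivers retinoic acid to its receptor. Crabp1 had 2, 3, 2 and 3 counts in WT and 3, 10, 1 and 1 in Wfs1KO. Crabp2 had 3, 0, 1 and 6 counts in WT and 12, 10, 0 and 1 in Wfs1KO. Nearly all of these libraries were at or under a handful of reads, and no difference between genotypes could be detected at this depth. Where Crabp2 had 0 counts, in WT replicate 2 and Wfs1KO replicate 3, up to 0.173 CPM is allowed in each (3 counts, counting error only). As for Aldh1a2, the higher Crabp2 counts were in Wfs1KO replicates 1 and 2.

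Rarb (NM_011243, chromosome 14, 16430840 to 16575476, minus strand) encodes retinoic acid receptor beta and is a textbook target of retinoic acid, through an element just before its start. The element is shown because it is how the gene reads the pathway's product. The 250 bases before the start (RefSeq, GRCm38.p6, chr14:16575477-16575726, minus strand) held 1 match to it, in capitals, from 53 to 37 bases before the start.
Rarb: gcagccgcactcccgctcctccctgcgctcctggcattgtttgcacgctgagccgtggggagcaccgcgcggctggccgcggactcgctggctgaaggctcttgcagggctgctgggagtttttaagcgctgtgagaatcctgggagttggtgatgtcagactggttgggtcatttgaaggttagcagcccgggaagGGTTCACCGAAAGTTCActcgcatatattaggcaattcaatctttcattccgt
The search was for direct repeats of half-sites on either strand, with 5 bases between them (DR5) or 2 (DR2). The half-site AGGTCA was allowed, as were the variants AGTTCA and GGGTCA and a further known variant, GGTTCA. A DR5 match was found in 0.0974% of 32851 promoter windows of 300 bases and a DR2 match in 0.268%. Windows were at hand for 6 of the 9 genes (Aldh1a1, Aldh1a2, Aldh1a7, Dhrs3, Crabp1 and Rarb), and the 5 others had none. Because this element of Rarb is a textbook example of the pattern searched for, its match was known beforehand and is no finding. A match is a description of letters and says nothing of binding in these cells.

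Rarb was lowly expressed and higher in every Wfs1KO library than in any WT library. It had 11, 7, 7 and 19 counts in WT (0.578, 0.404, 0.473 and 0.933 CPM) and 53, 23, 22 and 20 counts in Wfs1KO (1.86, 1.11, 1.27 and 0.990 CPM). WT replicate 4 and Wfs1KO replicate 4 nearly met. The log2 fold change was 1.12 (SE 0.37, 95% interval 0.32 to 1.91) and did not pass. In 14 of 19 alternative settings it did not pass either, such as without Wfs1KO replicate 1 (0.88) or with the acinar covariate (1.02). It passed without WT replicate 4 (1.43), with limma-voom (1.14) and with replicates 1 and 2 against 3 and 4 as a block (1.11). It also passed in replicates 1 and 2 alone (1.58) and at the looser threshold of 0.1. Replicates 3 and 4 alone gave 0.62. In GENCODE, 34.1% of the exon bases of Rarb lie over Top2b on the opposite strand. Top2b, a topoisomerase gene, stood at 122 CPM in WT and 134 CPM in Wfs1KO (log2 fold change 0.13, adjusted p = 0.0894 in edgeR's test). No strand setting is recorded for the counting, so reads of Top2b among those of Rarb cannot be told apart. The summed endothelial and stellate cell markers, like Rarb and Dhrs3, were higher in every Wfs1KO library than in any WT library. No correlation of these genes with those sums was computed, and the part of such cells in these levels was not tested.

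Around these 9 genes, other genes of the pathway passed the test in both directions. Beside the counts of each list below, 10.4% of all tested genes rose and 8.49% fell. Of 14 tested genes of retinol uptake, carriers and esters, 3 rose, 1 fell and 10 did not pass (median log2 fold change 0.09, against 0.01 over all tested genes). Fabp5, which encodes a fatty acid binding protein that also carries retinoic acid, rose from 1.38 ± 0.268 to 2.99 ± 0.542 CPM (log2 fold change 1.12, SE 0.23, edgeR adjusted p = 0.00390), but did not pass in replicates 3 and 4 alone (0.67, adjusted p = 0.184). Bco1, which encodes the enzyme that cleaves beta-carotene to retinaldehyde, rose from 7.49 ± 1.08 to 10.9 ± 1.17 CPM (0.53, SE 0.12, edgeR adjusted p = 0.00732), but did not pass in replicates 1 and 2 alone (adjusted p = 0.0594). Scarb1, a receptor for lipoproteins that also takes up carotenoids, rose from 28.3 ± 1.32 to 36.9 ± 1.33 CPM (0.38, SE 0.06, edgeR adjusted p = 4.63e-04). Each of these 3 was higher in all 4 Wfs1KO libraries than in any WT library. The lipoprotein lipase gene Lpl fell by 0.41 on the log2 scale (SE 0.12, edgeR adjusted p = 0.0402), but not when WT replicate 3 was left out, or Wfs1KO replicate 1, 2 or 4 (range of adjusted p 0.0918 to 0.101). The most abundant of the list per kilobase, the transthyretin gene Ttr, stood at 1058 ± 42.5 CPM in WT and 1008 ± 151 CPM in Wfs1KO (-0.07, SE 0.10). Stra6 and Rbp2 did not pass the filter on low counts.

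Of 13 tested oxidoreductases of retinol and retinaldehyde other than Rdh10 and Dhrs3, 0 rose, 2 fell and 11 did not pass (median -0.05). Dhrs4, which encodes a peroxisomal carbonyl reductase, was at 31.9, 33.9, 27.08 and 30.1 CPM in WT and at 16.4, 15.2, 14.3 and 16.8 CPM in Wfs1KO. It fell by 0.97 on the log2 scale (SE 0.08, edgeR adjusted p = 3.52e-06). Adh1, an alcohol dehydrogenase gene that can oxidise retinol, was the most abundant of this list per kilobase and fell from 141 ± 8.49 to 98.8 ± 5.37 CPM (-0.52, SE 0.06, edgeR adjusted p = 4.98e-05). In both genes all 4 Wfs1KO libraries lay below all WT libraries, and both calls held in each of the 21 alternative settings run. In GENCODE, Adh1 overlaps Gm16559 on the opposite strand over 6.09% of its exon bases.

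Genes that break retinoic acid down or respond to it were taken next, the 9 members left aside. Of the CYP26 enzymes, Cyp26b1 alone passed the filter on low counts. It stood at 1.997, 1.501, 4.73 and 3.39 CPM in WT and at 4.80, 4.65, 5.14 and 5.10 CPM in Wfs1KO, with 3 of 4 Wfs1KO libraries above every WT library. Its log2 fold change of 0.77 (SE 0.28) had an adjusted p = 0.0798 in edgeR's test. Without WT replicate 3, its highest WT library, the value was 1.09 (adjusted p = 0.00930), and with the replicate block it was 0.86 (adjusted p = 0.0276). Cyp26b1 also passed with DESeq2 (adjusted p = 0.0478) and limma-voom (adjusted p = 0.0474), and in replicates 3 and 4 alone its value was 0.34. In 14 of 21 alternative settings it did not pass.

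Of 16 tested genes outside the members that are known to respond to retinoic acid, Cyp26b1 included, 1 rose, 0 fell and 15 did not pass. Their log2 fold changes were above 0 in 14 of 16, with a median of 0.16, while 52.6% of all tested genes were above 0. The gene that rose was Nr2f2, an orphan nuclear receptor gene (6.73 ± 1.06 to 9.61 ± 2.05 CPM, log2 fold change 0.53, SE 0.16, edgeR adjusted p = 0.0352). The call of Nr2f2 was lost when WT replicate 1, 3 or 4 was left out, and likewise Wfs1KO replicate 1 or 2 (range of adjusted p 0.0571 to 0.104). Meis2, a homeobox gene and the most abundant of the list per kilobase, stood at 121 ± 3.84 CPM in WT and 134 ± 3.86 CPM in Wfs1KO (0.14, SE 0.05, edgeR adjusted p = 0.0566), with no overlap. Beside this list, endothelial marker sums were 1.43-fold and stellate marker sums, mostly Rgs5, 1.53-fold those of WT, and 7 of 10 stellate markers did not pass.

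Among 4 tested receptors other than Rarb, 0 rose, 1 fell and 3 did not pass (median -0.13). Rara, the gene of retinoic acid receptor alpha, fell from 22.2 ± 2.09 to 18.5 ± 1.08 CPM (-0.26, SE 0.08, edgeR adjusted p = 0.0376). This call was lost when WT replicate 1, 2 or 3 was left out, and likewise Wfs1KO replicate 1, 2 or 4 (range of adjusted p 0.0506 to 0.113). Rxra, a partner of all RARs, was the most abundant of these genes per kilobase in WT (15.6 ± 1.69 CPM per kilobase), within the spread of Rxrb (15.2 ± 0.684), and Rxrb was the higher in Wfs1KO (14.7 ± 0.537 against 13.5 ± 1.13). Rxra stood at 82.0 ± 8.90 CPM in WT and 70.8 ± 5.93 CPM in Wfs1KO (-0.21, SE 0.08, edgeR adjusted p = 0.0909), and passed without Wfs1KO replicate 4 (adjusted p = 0.0472).

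Some aldehyde dehydrogenases outside the ALDH1A group, which act on other substrates, rose. Of 13 tested genes 6 rose, 0 fell and 7 did not pass (median 0.10), while 10.4% of all tested genes rose and 8.49% fell. Aldh1l2, which encodes a mitochondrial folate enzyme, rose most, from 47.4, 51.9, 36.7 and 27.0 CPM in WT to 125, 118, 102 and 150 CPM in Wfs1KO (log2 fold change 1.60, SE 0.22, edgeR adjusted p = 0.00263). Aldh18a1, the gene of an enzyme of proline synthesis, rose from 100.3 ± 12.3 to 155 ± 11.1 CPM (0.63, SE 0.09, edgeR adjusted p = 2.49e-04). Aldh6a1, which works in valine breakdown, rose from 87.4 ± 2.10 to 117 ± 7.38 CPM (0.42, SE 0.06, edgeR adjusted p = 1.48e-04), and Aldh9a1, the most abundant per kilobase, from 120 ± 7.74 to 146 ± 14.2 CPM (0.29, SE 0.07, edgeR adjusted p = 0.0112). All 4 Wfs1KO libraries were above all WT libraries in each of the 6, which were selected by their call. Of all tested genes, 22.6% did not overlap between genotypes.

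The smallest rises in this family lost their calls in several settings. Aldh3b1 rose by 0.37 (SE 0.11, edgeR adjusted p = 0.0295), but did not pass with the replicate block (adjusted p = 0.0506) or with WT replicate 1 or 2 left out, or Wfs1KO replicate 1, 2 or 3 (range of adjusted p 0.0598 to 0.0919). Aldh5a1, which encodes succinic semialdehyde dehydrogenase, rose by 0.21 (SE 0.06, edgeR adjusted p = 0.0318), but did not pass with WT replicate 2 or 3 left out, or Wfs1KO replicate 1, 3 or 4 (range of adjusted p 0.0665 to 0.109). Aldh1l2 lost its call in replicates 3 and 4 alone (1.99, adjusted p = 0.0894), as did Aldh9a1 (0.28, adjusted p = 0.0517). In GENCODE, exons of Aldh1l2, Aldh5a1 and Aldh6a1 overlap genes on the opposite strand over 14.1% (D10Wsu102e), 14.1% (4932702P03Rik) and 18.6% (Bbof1) of their bases. Those of Nr2f2 overlap B130024G19Rik over 7.46%. The counts were made on RefSeq exons, for which no overlap was computed.

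**Figure D4:**
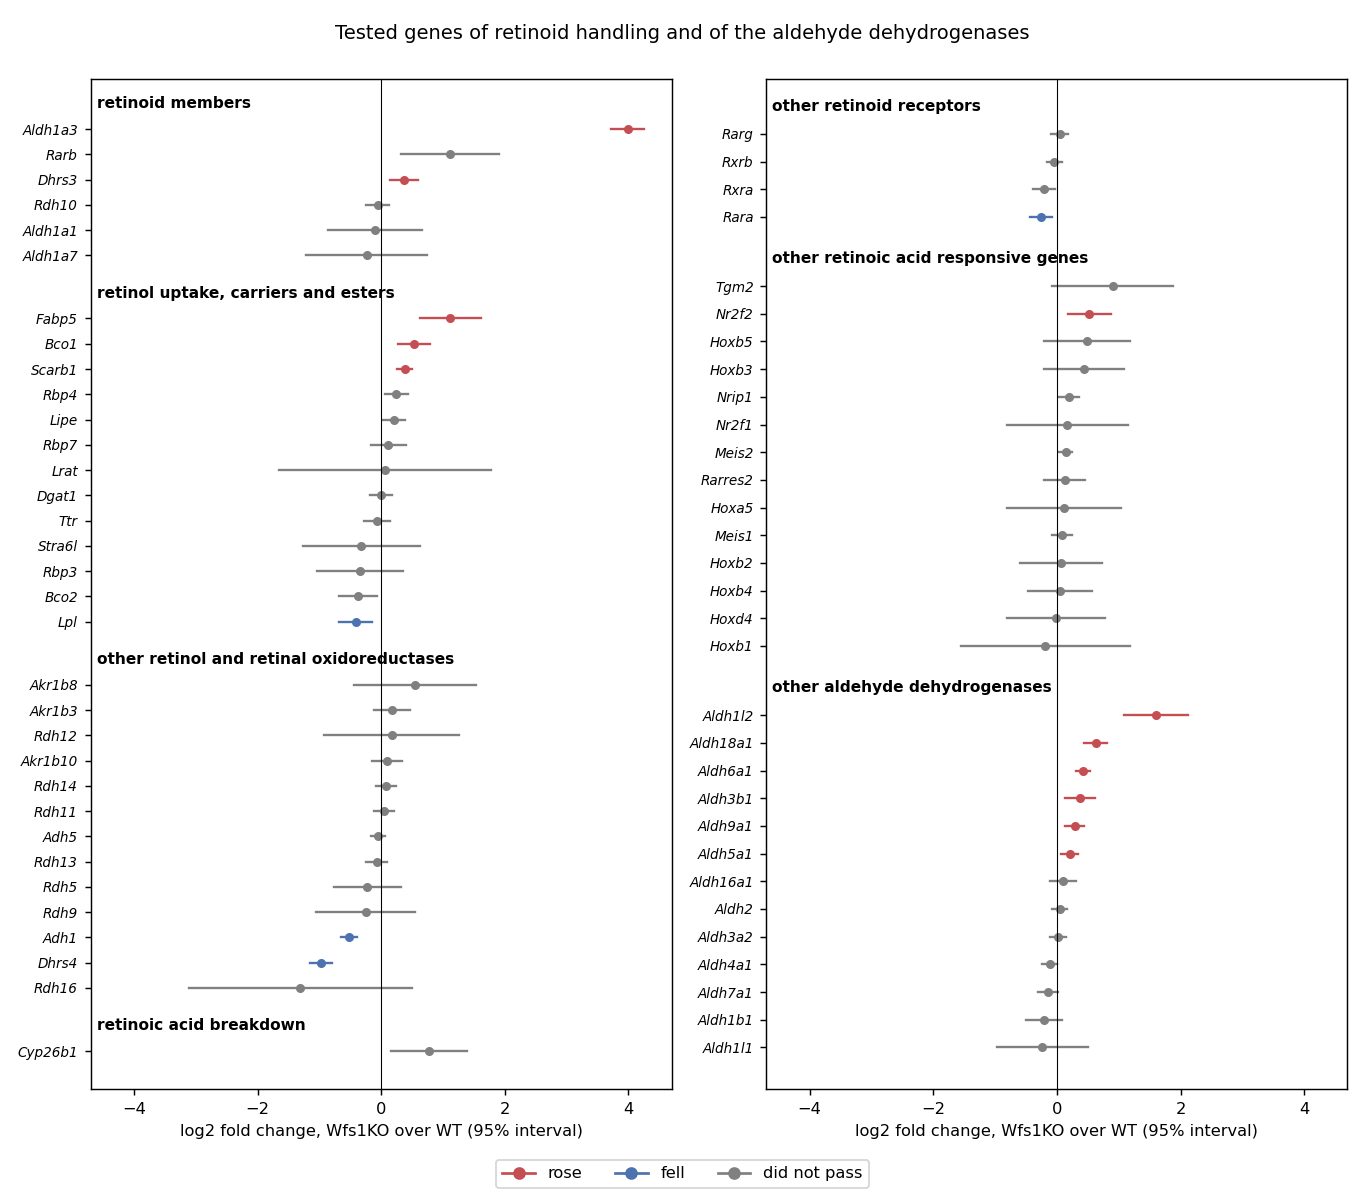
Log2 fold changes of Wfs1KO over WT (points) with 95% intervals (lines) for tested genes among the 9 retinoid genes and in the 6 further lists, red where the gene rose, blue where it fell and grey where it did not pass, each gene drawn once. Aldh1a3 at 3.99 lies farthest from 0, followed by Aldh1l2 at 1.60.

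Other genes at the Aldh1a3 locus and genes with its pattern were looked up as a description. Within 500 kilobases, Selenos (log2 fold change 0.63, edgeR adjusted p = 6.55e-06), Lrrk1 (0.67, adjusted p = 0.00624) and Pcsk6 (0.37, adjusted p = 0.00985) rose, while Snrpa1, Chsy1, Asb7, Lins1, Cers3 and Adamts17 did not pass. Lrrk1 is the next gene downstream of Aldh1a3 on the same strand and stood at 7.85 CPM in WT and 12.4 CPM in Wfs1KO. Among 11724 genes with at least 5 CPM in the higher genotype, genes most like Aldh1a3 by Pearson's r of log2 CPM over the 8 libraries were Slc7a3 (0.998), Os9 (0.996), Hsp90b1 (0.995) and Nucb2 (0.994). Slc7a3 encodes an amino acid transporter, Os9 and Hsp90b1 encode proteins of the endoplasmic reticulum, and none of these 4 belongs to the retinoid lists. These values hold the difference between genotypes, which many genes share. By deviations from genotype means, the 5 closest to Aldh1a3 were Dgke (0.992), Fam149a, Spp1, Prpsap1 and Prr15l (0.967).

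By the same deviations, the genes closest to Rdh10 were Wbp1l (0.980), Rab11fip5, Mgll, 2810474O19Rik and Dusp19, and those closest to Dhrs3 were Pde8b (0.981), Kitl, 9230112J17Rik, Klhl36 and Gpr158. No gene was shared among these 3 sets. Among the members, deviations of Aldh1a3 correlated with those of Dhrs3 at 0.660 and with those of Rarb at 0.092. Those of Rdh10 correlated with Dhrs3 at 0.686 and with Aldh1a3 at 0.342. With 8 libraries and 11724 genes compared, high values of this kind are common, and they are given as a description.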

How the data were processed

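Poly(A) RNA of 8 islet samples, 4 WT and 4 Wfs1KO, was analysed. Per the submitters' processing notes, alignment used STAR 2.6.0a with mm10, and HOMER 4.11.1 made the counts. The values are raw counts per RefSeq gene, summed over exons with no strand option, per the file headers, and the authors deposited them with exon lengths, used for levels per kilobase. The log2 fold changes quoted as the authors' come from the comparison the authors deposited, for which the same notes name DESeq2, and its settings are not given in the sources used here.

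Counts were fitted over all genes with edgeR 4.0.16 in R 4.3.3 (TMM, filterByExpr with minimum count 10, robust quasi-likelihood F-test, Benjamini-Hochberg adjustment), and the script was tested on simulated data. SE is the size of the log2 fold change over the root of F, and intervals are 95%. The common biological coefficient of variation was 10.7%. Correlations with marker sums used exact permutation over all 8 samples (scipy 1.17.1), which takes no account of genotype or replicate number. The members, lists and tests were chosen with earlier results of these data known. Named genes were the 9 members, up to 8 called genes and the most abundant gene per kilobase of each list, and the 5 genes most like Aldh1a3, Rdh10 and Dhrs3. Some genes that this rule or the lists take are not reported here. The genes near Aldh1a3 and the ratio of Rdh10 to Dhrs3 were added after values were seen.

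The labels number the replicates without saying what a number stands for. Across genes, the deviations from genotype means of WT and Wfs1KO samples with the same number correlated at 0.153, 0.443, 0.269 and 0.188. Samples with unlike numbers were not set beside these, so the values do not show whether the numbers mark pairs. The main fit had no replicate block, and a fit with the block was run beside it. The first principal component (37.9% of variance) parted replicates 1 and 2 from 3 and 4. Alternatives were DESeq2 1.42.0, its size factors in edgeR, limma-voom (limma 3.58.1), other filters and thresholds, the most abundant genes left out, the replicate block, a block of replicates 1 and 2 against 3 and 4, and each library left out. Each pair of replicates alone and the acinar marker sum as a covariate were added after the data were seen. Coding sequences are from GENCODE M21 (GRCm38, the build of mm10), as the longest open reading frame.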

Additional observations from a re-analysis of the deposited data

Results flagged for a closer look

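In 7 of 84 groups of 4 libraries, 1 library lay far from the other 3, with a gap to its nearest neighbour, relative to the whole range, above the 95% critical value of Dixon's test. Chance alone gives about 1 in 20 groups, or 4.2 here. The groups are not independent, as the summed level of the 4 Aldh1a genes holds Aldh1a1 and Aldh1a7. The 7 therefore cannot be weighed against 4.2 as a test. Among WT libraries, replicate 3 was apart in Aldh1a1 (4.39 CPM), in Aldh1a7 (2.97 CPM) and in the summed level of the 4 Aldh1a genes (4.63 CPM per kilobase), and replicate 2 in Aldh1a2 (0.750 CPM). WT replicate 3 also had the highest acinar marker sum of all libraries, 55932 CPM. In Wfs1KO, replicate 2 was apart in Crabp1 (0.484 CPM, from 10 counts), replicate 3 in the summed alpha cell markers (26115 CPM) and replicate 1 in the summed stellate cell and fibroblast markers (381 CPM).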

How the results depend on the processing

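Over 21 alternatives Aldh1a3 and Rdh10 kept their direction and their side of the threshold, with log2 fold changes of 3.80 to 4.17 and -0.08 to -0.02. Aldh1a1 turned positive without WT replicate 3 (0.06), without Wfs1KO replicate 3 (0.16), with the acinar marker sum as a covariate (0.21) and in replicates 1 and 2 alone (0.12), and Aldh1a7 without Wfs1KO replicate 3 (0.070) and with that covariate (0.11). Ttr turned positive without Wfs1KO replicate 4 (0.014). Leaving out 1 library gave -0.39 to 0.16 for Aldh1a1, -0.71 to 0.070 for Aldh1a7 and -0.16 to 0.014 for Ttr. None of these values passed the test in any of these settings. The counts of genes higher (1635) and lower (1335) in Wfs1KO were 1548 and 1391 in replicates 1 and 2 alone, 964 and 882 in replicates 3 and 4 alone (the cause was not tested), and 962 and 782 at adjusted p under 0.01. Leaving out 1 library gave 1354 to 1460 higher and 1019 to 1299 lower. The Aldh1a3 share in WT was 29.2% without dividing by length. With the replicate block 1603 genes were higher and 1329 lower. Among members and named list genes the block changed the call of Cyp26b1 and Aldh3b1, given above, and no other. Depth limits Aldh1a2, Crabp1, Crabp2 and Rarb, whose counts were mostly under 25 per library.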
